A study of Mus musculus with 721 samples.

Results

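Enzymes of threonine breakdown, glycine cleavage, serine synthesis and folate-bound carbon transfer were followed through the early mouse conceptus. The members were the 10 genes *Tdh*, *Gcat*, *Gldc*, *Amt*, *Phgdh*, *Psat1*, *Shmt1*, *Shmt2*, *Mthfd1* and *Mthfd2*, taken by symbol from a table of 24483 autosomal gene rows. All 10 had a row, and all 10 were among the 13619 genes left by a filter on low counts.

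The samples were 721 manually picked cells of wild-type C57Bl/6Babr embryos, with polyadenylated RNA captured and amplified in the G&T-seq workflow with Smart-seq2 chemistry. By stage, 99 cells came from E3.5 (inner cell mass freed of trophectoderm by immunosurgery), 105 from E4.5 (treated likewise), 267 from E5.5 and 250 from E6.5 embryos staged as early streak, of which 82 carry E6.75 in their title. In all, 128 wells were noted as doublets during picking, and 5 cells of E5.5 were labelled VE. No agent was given and no allele was altered in any group, so stage and lineage were the compared conditions.

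Threonine dehydrogenase (*Tdh*) oxidises threonine in mitochondria, and *Gcat* splits the product into glycine and acetyl-CoA. The glycine cleavage system, whose decarboxylase is *Gldc* and whose aminomethyltransferase is *Amt*, passes a carbon unit of glycine to folate. *Phgdh* and *Psat1* catalyse the opening steps of serine synthesis from a glycolytic intermediate, the hydroxymethyltransferases *Shmt1* (cytosol) and *Shmt2* (mitochondria) interconvert serine and glycine, and *Mthfd1* (cytosol) and *Mthfd2* (mitochondria) interconvert folate-bound carbon units that feed purine and thymidylate synthesis. Mouse embryonic stem cells are known for a high demand for threonine through *Tdh*.

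Cells were grouped with the member genes and the wider list of related enzymes held out of the clustering, and classes were named from markers. The E3.5 cells formed 1 class of 99 cells from 10 embryo labels, 1 of which was a set of 9 cells with no embryo number. At E4.5, 26 cells were epiblast-like and 79 were PrE-like (primitive endoderm), each from 5 embryos. The E5.5 cells split into 259 epiblast-like and 8 endoderm-like ones, the latter with the 5 labelled VE. At E6.5, 187 cells were epiblast-like (13 embryos), 40 were endoderm-like (12 embryos) and 23, from 1 embryo, were streak-like. The titles give 37 embryo labels in all, more than the embryos stated in the methods, so n counts labels and may exceed the number of distinct animals. Summed endoderm markers had a median of 15730 CPM (counts per 1000000) in PrE-like and 2833 in E4.5 epiblast-like cells, against 20650 in E6.5 endoderm-like and 1191 in E6.5 epiblast-like cells. In 15 cells the markers of the other lineage outweighed their own (3 PrE-like, 1 E4.5 epiblast-like and 11 E6.5 epiblast-like), and leaving those cells out changed the call of no member. Within an embryo, counts of the same class were added up where it had at least 3 cells, which gave 10, 5, 5, 8, 13 and 8 sums for E3.5, E4.5 epiblast-like and PrE-like, E5.5 epiblast-like, and E6.5 epiblast-like and endoderm-like cells. A cell held 66896 to 3792936 counts (median 692863). The pooled plate name P11.P6.P10 covers the 9 unnumbered E3.5 cells and 2 of the E5.5 embryos. Short names such as P1 recur at several stages without a label saying that they mean the same plate, so stage and plate cannot be told apart for the other embryos. At E6.5, 9 embryos came from plates P1 to P3 and 4 carried no plate name, and values for each kind are given where they differ. All cells titled E6.75 came from embryos with no plate name, so the kinds of embryo also differ in titled age. Levels of a sum are TMM-scaled CPM, those of cells and clusters are CPM without that scaling, and a gene was called changed when edgeR's quasi-likelihood test gave a Benjamini-Hochberg adjusted p of at most 0.05 over all 13619 genes and the log2 fold change was beyond 1. A lower level in a sum can come from fewer expressing cells or from less RNA per cell.

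The rows matched gene models of GRCm38 on 9 chromosomes, with *Gldc* and *Psat1* both on chromosome 19 (GENCODE vM21). *Tdh* lies on the minus strand at chr14:63492347-63509092, with 10 merged exons of 2615 bases in all. *Gcat* lies on the plus strand at chr15:79030874-79038353 (10 merged exons), *Gldc* on the minus strand at chr19:30098447-30175429 (25), *Phgdh* on the minus strand at chr3:98313170-98339990 (13) and *Psat1* on the minus strand at chr19:15904678-15947337 (12). Reads carried no strand, so those from 66 exonic bases that *Tdh* shares with the antisense gene *Gm17232*, 184 bases that *Shmt1* shares with *Smcr8*, 32 that *Shmt2* shares with *Ndufa4l2* and 37 that *Mthfd1* shares with *Gm47525* could come from either gene. A further *Gcat* model on the same strand overlaps 1132 exonic bases of *Gcat*. RefSeq promoter windows (GRCm38.p6, 250 bases before to 50 after the start) were at hand for 9 members. A single one of these 9 genes, *Gcat*, held the palindrome CACGTG, the E-box read by basic helix-loop-helix factors, which 7.15% of all 32851 windows hold on either strand. It sits just after the annotated start, in capitals in the window at chr15:79030624-79030923 (plus strand), shown because *Gcat* was the member whose level rose out of E3.5 in both lineages:

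Gcat: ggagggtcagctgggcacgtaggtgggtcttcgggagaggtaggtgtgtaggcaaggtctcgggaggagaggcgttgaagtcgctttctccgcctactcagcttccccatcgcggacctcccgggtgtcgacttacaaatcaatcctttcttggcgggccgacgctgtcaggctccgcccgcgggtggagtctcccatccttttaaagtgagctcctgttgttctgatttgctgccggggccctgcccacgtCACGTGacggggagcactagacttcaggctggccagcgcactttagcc

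The motif TGATGNAA, an element of the amino acid response, was in none of the members' windows and in 3.97% of all windows on either strand.

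**Figure D1:**
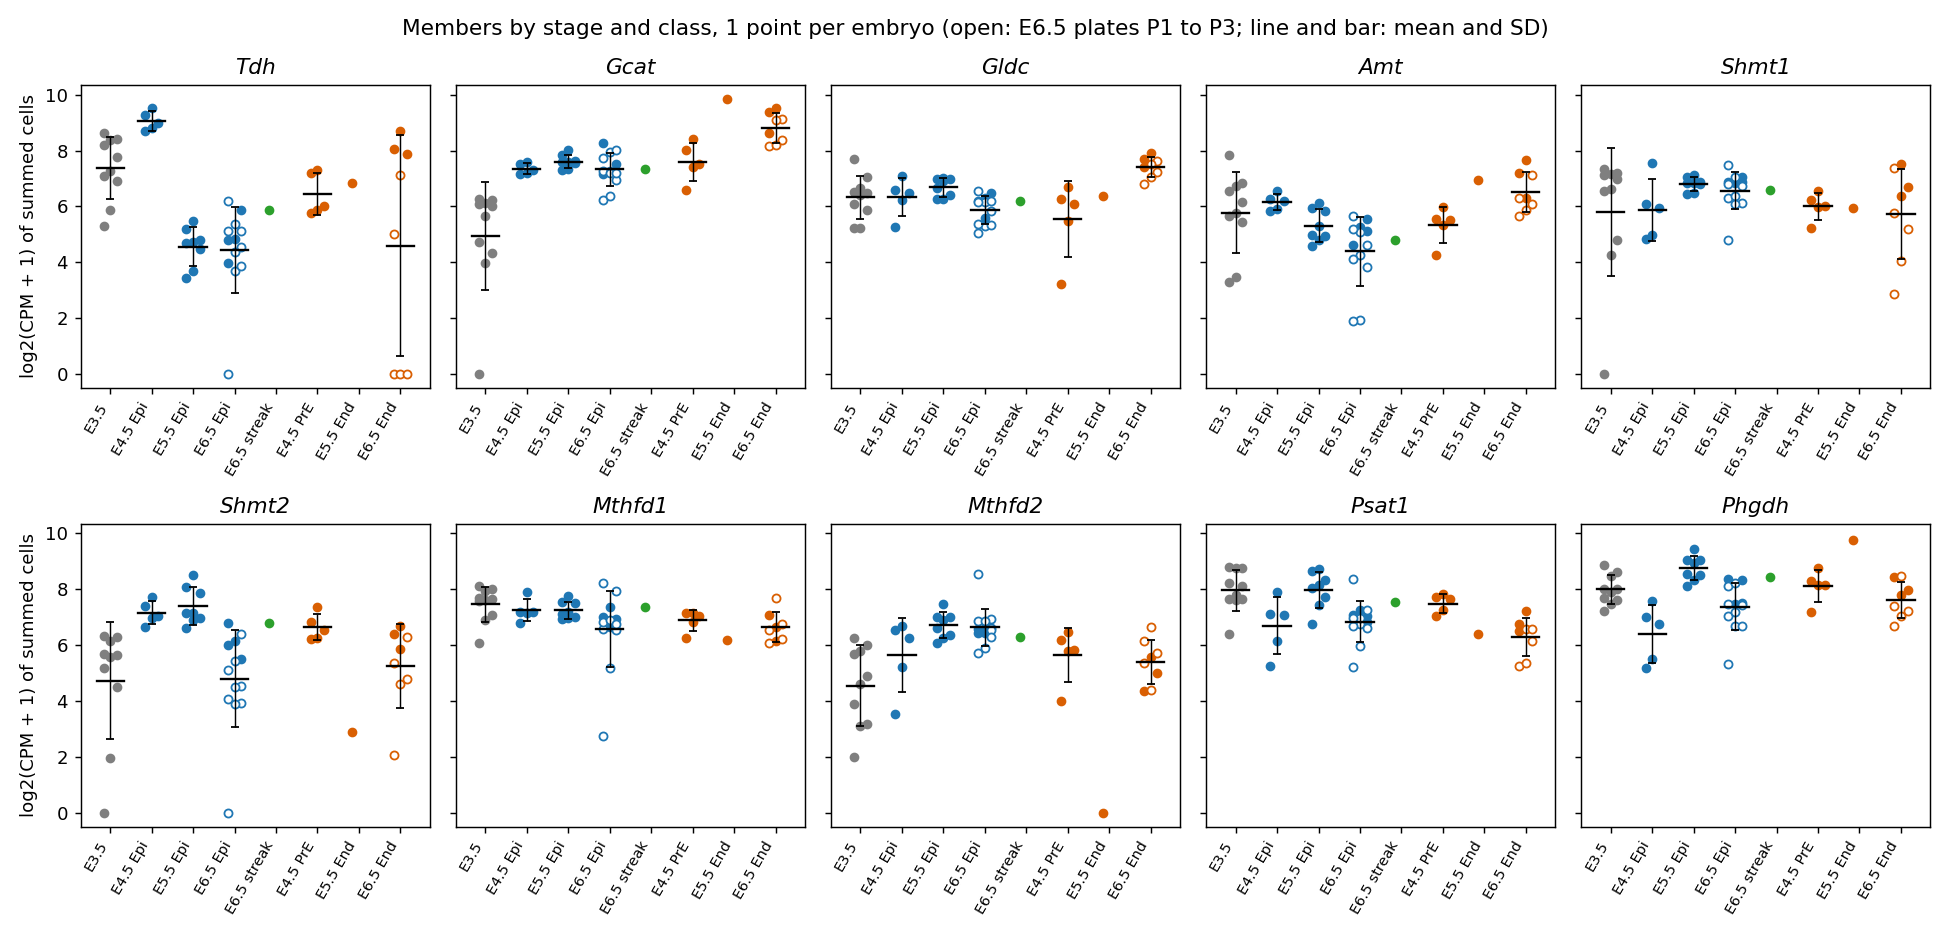
Level of each member as log2(CPM + 1) in every class and stage, with 1 point per embryo (open for E6.5 plates P1 to P3), a line at the mean and a bar of 1 SD, where Epi stands for epiblast-like, PrE for PrE-like and End for endoderm-like. *Tdh* stood between 411 and 740 CPM in the 5 E4.5 epiblast-like sums and between 9.78 and 43.7 in the 8 E5.5 ones, while *Gcat* was highest in endoderm-like cells.

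Per kilobase of exon, the order of the members changed with stage. In E3.5 cells the mean level per kilobase was highest for *Phgdh* (108 CPM per kb), followed by *Tdh* (79.2) and *Psat1* (65.2). In E4.5 epiblast-like cells *Tdh* led with 208 CPM per kb, against 68.4 for *Gcat* and 40.3 for *Phgdh*. By E5.5 *Phgdh* led the epiblast-like cells with 180 CPM per kb and *Tdh* was last with 9.51. The leading member of E6.5 endoderm-like cells was *Gcat* with 200 CPM per kb, and *Gldc* stood at 28.4 there against 10.1 in E6.5 epiblast-like cells.

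The count of members that passed differed between comparisons. From E3.5 to E4.5 epiblast-like cells 2 of 10 were higher and 2 lower, where 13.0% and 7.10% of all genes were, and from E3.5 to PrE-like cells 1 was higher and 0 lower (12.7% and 6.02% of all genes). From E4.5 to E5.5 epiblast-like cells 1 was higher and 1 lower (2.52% and 2.74%), and from E5.5 to E6.5 0 were higher and 3 lower (4.35% and 4.28%). PrE-like against epiblast-like cells of E4.5 gave 1 higher and 0 lower (3.09% and 2.54%), E6.5 endoderm-like against epiblast-like cells 4 higher and 1 lower (5.46% and 9.13%), and E6.5 endoderm-like against E4.5 PrE-like cells 1 higher and 1 lower (4.55% and 7.28%). Neighbouring comparisons share the sums of a group and are not independent of each other. *Shmt1* and *Mthfd1*, the cytosolic enzymes of the folate group, passed in none of the 7 comparisons.

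**Figure D2:**
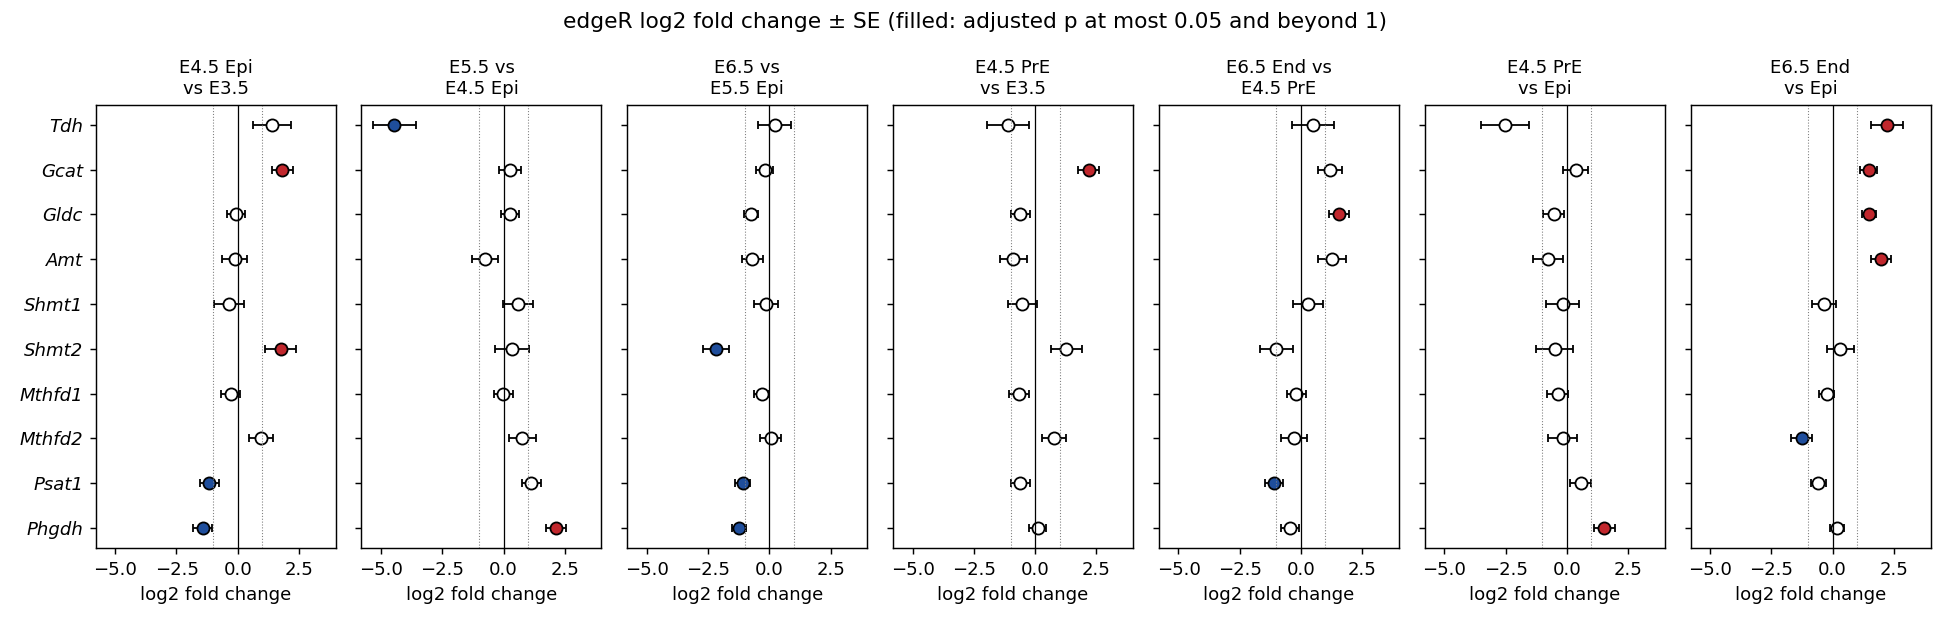
Log2 fold change with its SE for each member in the 7 comparisons, from edgeR's quasi-likelihood test, with filled points where the change passed and dotted lines at a log2 change of 1 in either direction. *Tdh* fell by 4.45 from E4.5 to E5.5 epiblast-like cells, and the E6.5 endoderm-like panel holds 4 members that rose.

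*Tdh* was highest in E4.5 epiblast-like cells and low in the epiblast-like cells of E5.5 and E6.5, with the E3.5 median in between. The level over the 10 E3.5 sums ran from 38.1 through a median of 186 to 390 CPM. The lowest of these, from the unnumbered cells, lay within the range of the E5.5 sums. E3.5 was not tested against E5.5 or E6.5. Among E4.5 epiblast-like cells the 5 embryos had 411, 452, 504, 620 and 740 CPM, all above every E3.5 sum. The log2 difference was 1.40 ± 0.77 (SE) and did not pass in the fit over all groups (adjusted p = 0.205), whereas a fit of these 15 sums alone called it (1.35, adjusted p = 0.0304).

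In E5.5 epiblast-like cells *Tdh* ran from 9.78 through 25.1 to 43.7 CPM (n = 8). Every E5.5 sum was below every E4.5 epiblast-like sum. *Tdh* fell by 4.45 ± 0.88 on the log2 scale (adjusted p = 0.00071). The E6.5 epiblast-like level, from 0 through 26.5 to 72.7 CPM (n = 13), overlapped that of E5.5, with a log2 difference of 0.22 ± 0.67 (adjusted p = 0.893).

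Shares of wells with a *Tdh* count, pooled over embryos, gave the same order. Doublets were kept and made up 9 of the 99 E3.5 wells. They made up 8 of 26 E4.5, 66 of 259 E5.5 and 10 of 187 E6.5 epiblast-like wells. After thinning each cell to 300000 counts, which left out 46 of 721 cells, *Tdh* had a count in 26 of 26 E4.5 epiblast-like cells, in 42.2% of 251 E5.5 and in 49.7% of 171 E6.5 epiblast-like cells. Without thinning the last 2 shares were 46.3% of 259 and 56.1% of 187 cells. The share in E3.5 cells was 74.2% of 89 thinned cells and 77.8% of all 99.

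Within E4.5 embryos *Tdh* had lower levels in the PrE-like cells, a difference called in a fit of the E4.5 sums alone and not in the fit over all groups. The 5 PrE-like sums held 53.4, 56.9, 64.3, 146 and 157 CPM, with no overlap with the epiblast-like sums, and the PrE-like sum was the lower in 5 of 5 embryos. The log2 difference of -2.51 ± 0.98 did not pass the fit that shares its spread over all groups (adjusted p = 0.114). In the 10 E4.5 sums alone it passed at -2.49 without a block (adjusted p = 0.000449) and at -2.62 with embryo as a block (adjusted p = 0.00134). These fits called 1264 and 1342 genes, against 421 higher and 346 lower in the fit over all groups.

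At E6.5 the *Tdh* level of endoderm-like cells followed the kind of embryo and the cluster. In order, the 8 sums held 0, 0, 0, 31.6, 139, 231, 263 and 410 CPM. The 3 sums with no plate name were all above the 5 of plates P1 to P3. Within the 8 embryos that had both classes the endoderm-like sum was the higher in 4, with log2 differences from -5.12 to 4.05. Over all embryos the log2 change from epiblast-like to endoderm-like cells was 2.22 ± 0.65 and passed (adjusted p = 0.0152), but it was 0.31 within plates P1 to P3 (adjusted p = 0.863), 3.23 within embryos with no plate name (adjusted p = 0.00126), 2.36 with the E6.5 sums of both classes alone in the fit (adjusted p = 0.0944), 1.26 with embryo as a block in the 8 embryos that had both (adjusted p = 0.714) and 1.33 without the E6.75 cells (adjusted p = 0.232).

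The E6.5 endoderm-like class held 2 clusters, 1 of 19 cells led by *Dkk1*, *Lhx1* and *Cer1* (genes of the anterior visceral endoderm) and 1 of 21 cells led by *Hba-a1*, *Hbb-b1* and *Apob*. *Tdh* had a count in 1 of 19 cells of the first and in 20 of 21 cells of the second, with pooled levels of 0.783 and 235 CPM (not TMM-scaled, as in the rest of this paragraph). All 19 cells of the first cluster came from plates P1 to P3. Inside those plates the second cluster had 7 cells from 3 embryos, 6 of them with a *Tdh* count, at 37.1, 61.5 and 145 CPM per embryo. Its 14 cells from the 4 embryos with no plate name all had a count, at 241 to 432 CPM. In the 1 embryo with both clusters, *Tdh* was at 0 in 3 cells of the first and at 61.5 CPM in 2 cells of the second. These are descriptions of cells that were clustered on other genes, with no test. Leaving the first cluster out, a step chosen after the data were seen, gave a log2 change against epiblast-like cells of 3.21. It removed the cells with almost no *Tdh* count, so a larger change was fixed in advance. The endoderm-like sums left came mostly from embryos with no plate name.

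**Figure D3:**
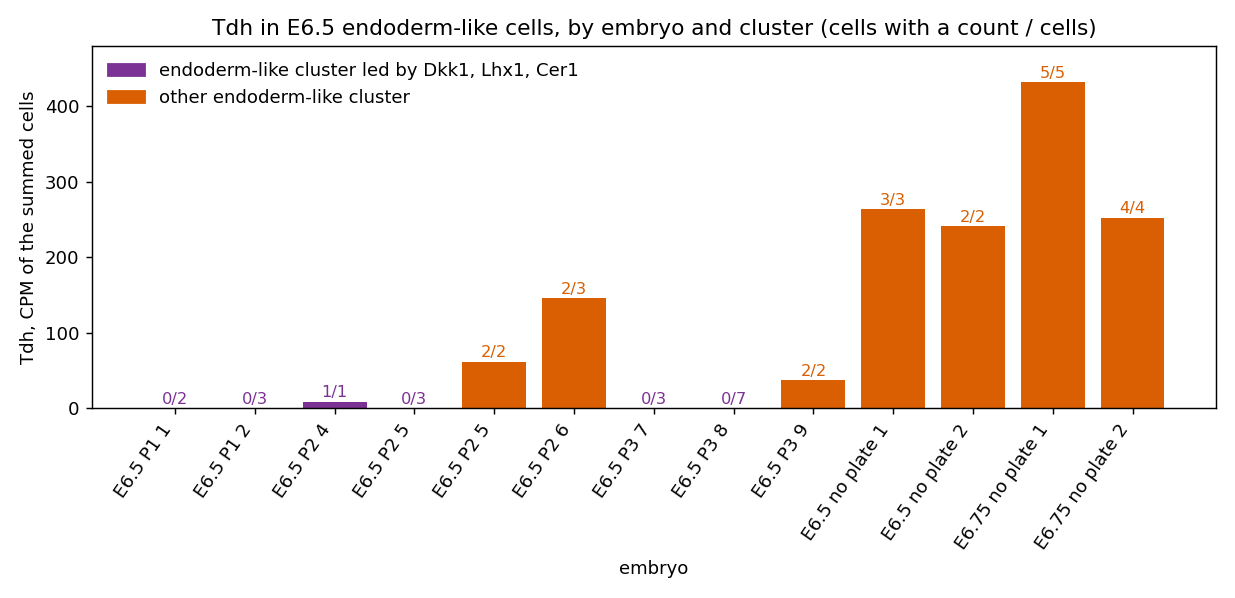
*Tdh* level in CPM (not TMM-scaled) of the summed E6.5 endoderm-like cells of each embryo and cluster, with the number of cells holding a *Tdh* count over the number of cells above each bar. The *Cer1* cluster has a count in 1 of its 19 cells, and the highest bars are those of the 4 embryos with no plate name.

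*Gcat*, the partner enzyme of *Tdh*, had another pattern. It ran from 0 through 56.5 to 75.1 CPM in the 10 E3.5 sums. The 5 E4.5 epiblast-like sums held 142, 146, 156, 181 and 191 CPM and the 5 PrE-like sums 95.7, 171, 182, 257 and 341 CPM. Both sets stood above every E3.5 sum. *Gcat* rose by 1.83 ± 0.42 on the log2 scale into epiblast-like (adjusted p = 0.0011) and by 2.19 ± 0.42 into PrE-like cells (adjusted p = 0.000101), 2 comparisons that share the E3.5 sums. With only the groups compared in the fit, the former missed the limit (1.84, adjusted p = 0.0509).

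In the epiblast-like cells *Gcat* then ran from 158 to 259 CPM at E5.5 and from 73.5 to 309 CPM at E6.5, and neither step passed (0.27 ± 0.46, adjusted p = 0.851, and -0.19 ± 0.36, adjusted p = 0.809). Endoderm-like cells of E6.5 had 283 to 732 CPM with a median of 470. Their range overlapped that of the epiblast-like sums, and within the 8 embryos that had both classes the endoderm-like sum was the higher in 8. *Gcat* rose by 1.47 ± 0.35 on the log2 scale from epiblast-like to endoderm-like cells (adjusted p = 0.00325). The change was 1.33 within plates P1 to P3 (adjusted p = 0.0538) and 1.59 in embryos with no plate name (adjusted p = 0.153). Along the endoderm, 5 of the 8 E6.5 sums stood above every E4.5 PrE-like sum, and the step did not pass in the fit over all groups. It was called with DESeq2, with sums of at least 1 or at least 5 cells and with only the groups compared in the fit, and in no other setting tried.

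Both genes of the glycine cleavage system were higher in the endoderm-like cells of E6.5. *Gldc* ran from 110 through 177 to 237 CPM in the 8 endoderm-like sums and from 32.1 through 69.8 to 93.3 CPM in the 13 epiblast-like sums, with no overlap. It rose by 1.49 ± 0.29 on the log2 scale (adjusted p = 0.000407), and was higher in 8 of 8 embryos. The change was 1.44 within plates P1 to P3 (adjusted p = 0.0139) and 1.49 in embryos with no plate name (adjusted p = 0.108).

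At E4.5 no such difference passed for *Gldc*, with 8.43, 43.6, 66.5, 75.3 and 103 CPM in PrE-like and 37.0, 74.4, 88.3, 95.5 and 135 CPM in epiblast-like sums. The 2 ranges overlapped, and the log2 difference was -0.54 ± 0.42 (adjusted p = 0.53). From E4.5 PrE-like to E6.5 endoderm-like cells *Gldc* rose by 1.54 ± 0.40 (adjusted p = 0.00676), with every E6.5 sum above every E4.5 sum. That call was lost with sums of at least 1 cell (1.37, adjusted p = 0.0693).

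*Amt* held 49.3 through 78.6 to 199 CPM in E6.5 endoderm-like and 2.72 through 23.7 to 49.5 CPM in epiblast-like sums. The top epiblast-like sum was just above the bottom endoderm-like sum. *Amt* rose by 1.98 ± 0.42 (adjusted p = 0.00102) and was higher in 8 of 8 embryos, with changes of 1.85 within plates P1 to P3 (adjusted p = 0.0245) and 1.99 in embryos with no plate name (adjusted p = 0.0808). Between E3.5 and E6.5 the epiblast-like *Amt* median went from 61.7 (E3.5) through 71.9 and 34.3 to 23.7 CPM, and no step of it passed.

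The contrast of endoderm-like with epiblast-like cells was tested for a difference between E6.5 and E4.5. This comparison was added after the data were seen. That term passed for 3 members, *Tdh* (4.73 ± 1.21, adjusted p = 0.0253), *Amt* (2.74 ± 0.75, adjusted p = 0.0328) and *Gldc* (2.03 ± 0.52, adjusted p = 0.0246), all 3 toward endoderm-like cells at E6.5. Of all genes 0.874% passed in that direction and 1.80% in the other. Within plates P1 to P3 alone none of the 3 passed, with values of 2.82 for *Tdh*, 2.61 for *Amt* and 1.98 for *Gldc* and adjusted p of 0.197, 0.0651 and 0.0511. Leaving out E4.5 embryos in turn, *Tdh* passed without embryo 5 alone, *Gldc* without embryo 1, 2 or 5 and *Amt* in no case.

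**Figure D4:**
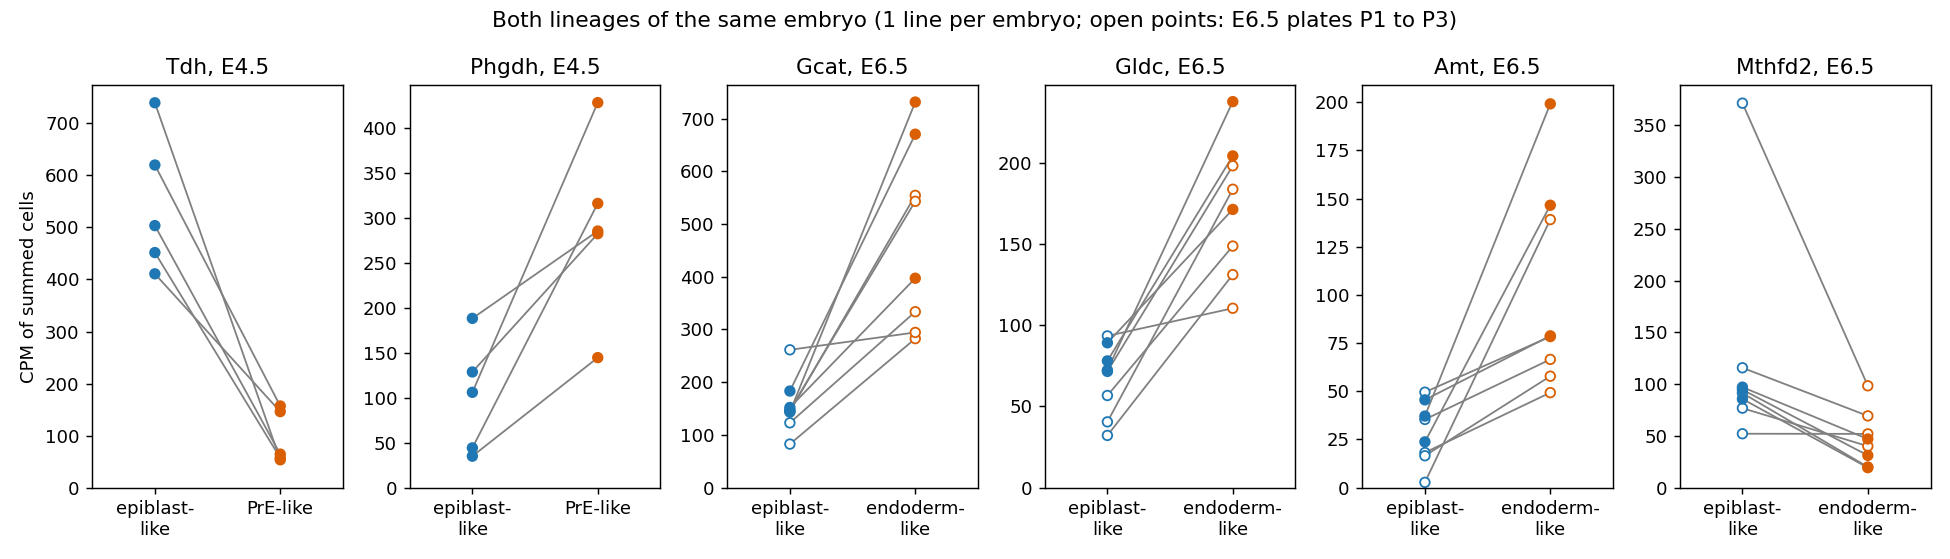
CPM of the summed epiblast-like and PrE-like or endoderm-like cells of the same embryo, joined by a line, for *Tdh* and *Phgdh* at E4.5 (5 embryos) and for *Gcat*, *Gldc*, *Amt* and *Mthfd2* at E6.5 (8 embryos, open points for plates P1 to P3). The lines of *Tdh* fall in 5 of 5 embryos and those of *Phgdh* rise in 5 of 5, and at E6.5 those of *Gcat*, *Gldc* and *Amt* rise in 8 of 8, while those of *Mthfd2* fall, in 1 embryo from 52.0 to 51.9 CPM.

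*Phgdh*, the entry enzyme of serine synthesis, was low in the E4.5 epiblast and highest in that of E5.5. It held 150 through 246 to 469 CPM over the 10 E3.5 sums, and 34.9, 44.1, 106, 129 and 188 CPM in the 5 E4.5 epiblast-like sums. Of these 5 sums 4 were below every E3.5 sum. *Phgdh* fell by 1.43 ± 0.38 on the log2 scale (adjusted p = 0.0044).

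At E5.5 *Phgdh* ran from 279 through 434 to 687 CPM in the 8 epiblast-like sums, all above every E4.5 epiblast-like sum. It rose by 2.16 ± 0.40 (adjusted p = 0.00032). At E6.5 it was back at 39.5 through 177 to 332 CPM, with 10 of 13 sums below every E5.5 sum, a fall of 1.25 ± 0.28 (adjusted p = 0.00179). Within the E6.5 embryos of plates P1 to P3 the log2 change was -1.48 (adjusted p = 0.000948), and within those with no plate name it was -0.80 (adjusted p = 0.305).

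In the PrE-like cells of E4.5 *Phgdh* stood at 144, 282, 285, 316 and 428 CPM, and the PrE-like sum was the higher in 5 of 5 embryos. A single epiblast-like sum, at 188 CPM, lay above the lowest PrE-like one. In the fit over all groups *Phgdh* was the one member called between the lineages at E4.5, with a rise of 1.54 ± 0.42 (adjusted p = 0.0192), or 1.75 with embryo as a block (adjusted p = 0.00724). The call was lost without embryo 1 (1.39, adjusted p = 0.0934) and without embryo 4 (1.35, adjusted p = 0.101). At E6.5 the endoderm-like sums ran from 101 through 195 to 351 CPM and overlapped the epiblast-like ones, with a log2 difference of 0.19 ± 0.29 (adjusted p = 0.714).

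Cell by cell, a *Phgdh* count was seen in 80.8% of 26 E4.5 epiblast-like cells, against 94.7% of 75 PrE-like and all 251 E5.5 epiblast-like cells after thinning. Before thinning the shares were 80.8% of 26, 96.2% of 79 and all 259. By embryo the thinned shares ran from 66.7% to 100% and from 80.0% to 100%, and were 100% throughout at E5.5. Wells noted as doublets were kept. A pseudogene, Phgdh-ps1, is annotated for *Phgdh* and has no row of its own.

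*Psat1*, the aminotransferase that follows *Phgdh*, fell from E3.5 to the E4.5 epiblast and from the E5.5 to the E6.5 epiblast, the rise into E5.5 missing the limit. It held 83.1 through 246 to 447 CPM at E3.5 and 37.2, 69.7, 133, 138 and 238 CPM in the E4.5 epiblast-like sums. The ranges overlapped, with 2 of 5 E4.5 sums below every E3.5 sum. *Psat1* fell by 1.17 ± 0.39 (adjusted p = 0.025), a call that was lost without E4.5 embryo 1 (-1.02, adjusted p = 0.0849), embryo 2 (-0.96, adjusted p = 0.0962) or embryo 4 (-1.19, adjusted p = 0.0514), and with only the groups compared in the fit (-1.17, adjusted p = 0.0523).

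At E5.5 *Psat1* ran from 108 through 274 to 418 CPM, with a log2 difference from E4.5 of 1.14 ± 0.40 that did not pass (adjusted p = 0.0781). At E6.5 it ran from 36.3 through 124 to 329 CPM, and 5 of 13 sums were below every E5.5 sum. The fall into E6.5 was 1.09 ± 0.30 (adjusted p = 0.0101), with -1.12 within plates P1 to P3 (adjusted p = 0.0225) and -1.01 in embryos with no plate name (adjusted p = 0.189).

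Along the endoderm *Psat1* held 130, 150, 198, 209 and 225 CPM in the E4.5 PrE-like sums and 36.9 through 92.2 to 150 CPM in the E6.5 endoderm-like ones. Of the 8 E6.5 sums 7 were below every E4.5 sum. *Psat1* fell by 1.10 ± 0.38 (adjusted p = 0.0453), with -1.44 for plates P1 to P3 (adjusted p = 0.0266) and -0.63 for embryos with no plate name (adjusted p = 0.456). That call was kept without E4.5 embryo 5 and lost without each of the others in turn (adjusted p = 0.0606 to 0.109), and it was lost without E6.5 embryo 7 of plate P3 (-1.08, adjusted p = 0.0676) and with sums of at least 1 cell (-0.71, adjusted p = 0.452). RLE scaling, no filter on low counts, sums of at least 5 cells and fitting only the groups compared lost it as well.

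*Shmt2*, which makes glycine from serine in mitochondria, was low at E3.5, higher at E4.5 and E5.5 and low again at E6.5. The E3.5 sums ran from 0 through 48.0 to 78.5 CPM. The 5 E4.5 epiblast-like sums held 99.8, 124, 130, 170 and 210 CPM, all above every E3.5 sum. *Shmt2* rose by 1.76 ± 0.63 (adjusted p = 0.0373), a call kept without embryo 4 and lost without each of the other E4.5 embryos in turn (1.54 to 1.80, adjusted p = 0.0575 to 0.117). Without the 9 unnumbered E3.5 cells it was 1.74 (adjusted p = 0.0509), and with only the groups compared in the fit 1.76 (adjusted p = 0.0854).

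The E5.5 epiblast-like sums of *Shmt2* ran from 96.4 through 142 to 367 CPM, with a log2 difference from E4.5 of 0.35 ± 0.69 (adjusted p = 0.878). At E6.5 they ran from 0 through 33.9 to 110 CPM, and 12 of 13 were below every E5.5 sum. *Shmt2* fell by 2.18 ± 0.53 (adjusted p = 0.0037). The E6.5 mean was 27.4 ± 24.2 CPM (SD, n = 9) in plates P1 to P3 and 72.1 ± 27.5 CPM (SD, n = 4) in embryos with no plate name, and the log2 change was -2.76 (adjusted p = 0.00148) and -1.35 (adjusted p = 0.325) within each.

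*Mthfd2*, the mitochondrial dehydrogenase and cyclohydrolase of the folate pathway, was the member that was lower in E6.5 endoderm-like cells. It held 19.3 through 43.5 to 98.4 CPM in the 8 endoderm-like and 52.0 through 94.6 to 371 CPM in the 13 epiblast-like sums. The highest of these, at 371 CPM, was embryo 7 of plate P3, and the other 12 held at most 120.3 CPM. The ranges overlapped, and the endoderm-like sum was the lower in 8 of 8 embryos, in 1 of them by 51.9 against 52.0 CPM. *Mthfd2* fell by 1.26 ± 0.44 (adjusted p = 0.0384). The change was -1.13 in plates P1 to P3 (adjusted p = 0.189), -1.51 in embryos with no plate name (adjusted p = 0.26) and -1.17 without the E6.75 cells (adjusted p = 0.12). Without embryo 7 of plate P3 it was -1.18 and missed the limit (adjusted p = 0.0538). The call was also lost with RLE in place of TMM scaling, with sums of at least 1 cell and with Ward clustering. Merging the embryos titled E6.5 with no plate name into those of the same number on plate P1 lost it as well (embryos titled E6.75 stayed apart). So did leaving out the *Cer1* cluster and testing against the log2 limit. It was kept with DESeq2, with limma-trend, with embryo as a block and in the E6.5 sums alone.

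*Shmt1* and *Mthfd1* varied less between groups. The group means of *Shmt1* ran from 65.7 ± 20.4 CPM (SD, n = 5) in E4.5 PrE-like to 112 ± 18.1 CPM (SD, n = 8) in E5.5 epiblast-like cells. Those of *Mthfd1* ran from 106 ± 45.6 CPM (SD, n = 8) in E6.5 endoderm-like to 189 ± 65.6 CPM (SD, n = 10) in E3.5 cells. A count of *Mthfd1* was found in at least 84.2% of thinned cells in each of E3.5, E4.5, E5.5 epiblast-like and E6.5 epiblast-like and endoderm-like cells. The lowest share in an embryo of these groups was 66.7%, seen in both E6.5 classes.

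**Figure D5:**
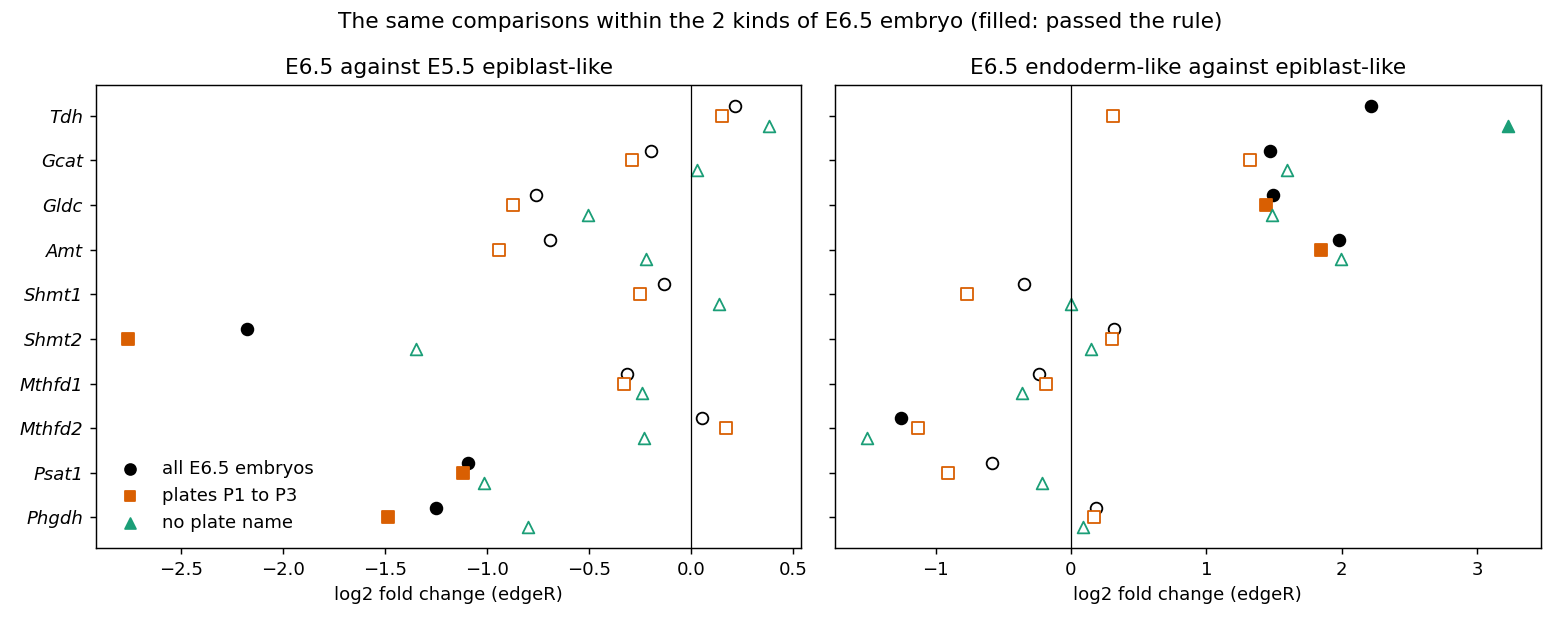
Log2 fold change of each member in epiblast-like cells from E5.5 to E6.5 (left) and of both E6.5 lineages (endoderm-like over epiblast-like, right), for all E6.5 embryos, those of plates P1 to P3 and those with no plate name, with filled markers where the change passed. On the right *Tdh* is at 0.31 in plates P1 to P3 and at 3.23 in embryos with no plate name, while *Gldc* is at 1.44 and 1.49.

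The 9 unnumbered E3.5 cells and E5.5 embryos 7 and 8, which share a plate name, gave values with no test. *Phgdh* was at 469 CPM in the E3.5 cells against 687 and 525 CPM in the E5.5 epiblast-like sums. *Gcat* was at 74.8 against 259 and 190 CPM and *Shmt2* at 35.2 against 142 and 270 CPM. In all 3 genes both E5.5 sums were the higher, as for *Mthfd2* (54.2 against 66.6 and 175 CPM). Both E5.5 sums were the lower for *Gldc* (208 against 75.3 and 120 CPM), *Amt* (91.7 against 38.6 and 68.4 CPM) and *Shmt1* (145 against 111 and 85.4 CPM). They were also the lower for *Mthfd1* (205 against 128 and 138 CPM) and *Psat1* (431 against 212 and 418 CPM). *Tdh* was at 38.1 against 25.4 and 21.1 CPM, and this E3.5 value was the lowest of the 10 at that stage.

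Other genes of the same pathways were read from a list of 51. Between E6.5 lineages 5.46% of all genes were called higher and 9.13% lower. In E6.5 endoderm-like cells *Psph*, the phosphatase that completes serine synthesis, ran from 23.8 through 175 to 319 CPM, against 8.37 through 40.1 to 86.0 CPM in the epiblast-like sums, and was called higher (adjusted p = 0.000508). Of 2 other glycine cleavage genes 1 rose, *Gcsh*, the lipoyl carrier protein of the system, by 1.35 ± 0.23 (adjusted p = 5.26e-05), so that 3 of the 4 glycine cleavage genes with members included were higher there. Of 13 folate genes 2 were higher, *Aldh1l1*, which oxidises formyl-folate and had a count in 2 of 8 endoderm-like and 1 of 13 epiblast-like sums, and the folate receptor *Folr1* (3.49 ± 0.44, adjusted p = 3.15e-07), whose 8 endoderm-like sums ran from 203 through 433 to 594 CPM. Of 10 purine synthesis genes 2 were lower, *Paics* (-1.19 ± 0.18, adjusted p = 1.17e-05) and *Adsl* (-1.18 ± 0.29, adjusted p = 0.00396). Of 13 genes of the amino acid response 1 was lower, *Pycr1* of proline synthesis, which had a median of 0 CPM in endoderm-like and 4.25 CPM in epiblast-like sums. Of 11 tested genes of the methionine cycle and transsulfuration 1 was higher, the dimethylglycine dehydrogenase *Dmgdh*, with a count in 2 of 8 endoderm-like and 0 of 13 epiblast-like sums, and 1 lower, *Cbs*.

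From E3.5 to E4.5 epiblast-like cells 4 of the 13 folate genes were higher and 0 lower, where 13.0% and 7.10% of all genes were. Among those higher were *Mthfd1l* (2.62 ± 0.76, adjusted p = 0.00907), *Mthfd2l* and *Ggh*, the last of which had no count in the 10 E3.5 sums. The median log2 change of the folate list was 1.21, against 0.00 for all genes. Of 11 tested genes of the methionine cycle and transsulfuration 4 were higher, led by *Gnmt* (adjusted p = 0.0495) with a count in 2 of 5 E4.5 and 3 of 10 E3.5 sums, and 2 lower. *Bhmt2*, a relative of *Bhmt*, held up to 80.4 CPM at E3.5 and had no count in the 5 E4.5 epiblast-like sums. *Bhmt*, which remethylates homocysteine with betaine, held 615 through 1515 to 4108 CPM in the 10 E3.5 sums, at most 14.9 CPM in the E4.5 epiblast-like sums and no count in the 8 E5.5 epiblast-like sums. Of 10 purine synthesis genes 1 was higher, *Adss* (1.65 ± 0.30, adjusted p = 5.86e-05), from 10.1 through 64.8 to 78.6 CPM at E3.5 to between 139 and 209 CPM at E4.5. In the amino acid response list 2 of 13 were higher, *Pycr1* (3.01 ± 1.05, adjusted p = 0.0318) and the cystine transporter *Slc7a11*, the latter with a count in 1 of 5 E4.5 and 0 of 10 E3.5 sums.

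From E3.5 to PrE-like cells the leading called genes were *Gcsh* (1.55 ± 0.27, adjusted p = 2.04e-05), *Ggh*, *Gnmt* (adjusted p = 0.0133) and the proline synthesis enzyme *Aldh18a1* (3.71 ± 0.83, adjusted p = 0.000865) among those higher and *Bhmt* among those lower. From E4.5 to E5.5 epiblast-like cells *Folr1* fell by 1.97 ± 0.54 (adjusted p = 0.0199), and *Bhmt* was called lower. From E5.5 to E6.5 *Pfas* rose by 1.19 ± 0.33 (adjusted p = 0.0121) and *Gart* fell by 1.09 ± 0.27 (adjusted p = 0.00509), both enzymes of purine synthesis, and *Bhmt2* was called higher on a count in 1 of 13 E6.5 sums. Along the endoderm *Adss* rose by 1.27 ± 0.34 (adjusted p = 0.00988), and *Pycr1* and *Cbs* were lower. In the difference between stages *Dmgdh* and *Cth* were called, both toward endoderm-like cells at E6.5. For *Dmgdh* this rests on the few sums with a count given above, and *Cth* was low in E4.5 PrE-like cells, as given below.

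In E4.5 PrE-like cells *Mthfd2l*, a mitochondrial relative of *Mthfd2*, was at most 0.588 CPM, against 1.74 to 21.2 CPM in the epiblast-like cells, and was called lower (adjusted p = 0.0202). There *Cth*, the transsulfuration enzyme that makes cysteine, was at 0.562 through 3.33 to 20.3 CPM, against 133 through 195 to 404 CPM in the epiblast-like cells. *Cth* fell by 4.83 ± 1.05 (adjusted p = 0.00306), with no overlap of the groups. *Cbs*, the enzyme before it, had no count in the 8 E6.5 endoderm-like sums and 16.3 through 31.0 to 62.5 CPM in the E5.5 epiblast-like sums. These groups differ in stage and lineage and were not compared with each other. The calls of *Cbs* in E6.5 endoderm-like cells were against E6.5 epiblast-like and E4.5 PrE-like cells. From E5.5 to E6.5 epiblast-like cells *Sesn2* of the amino acid response list fell by 2.35 ± 0.52 (adjusted p = 0.00121).

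Genes most like a member were ranked over 51 sums by Pearson's r of the log2 level, as a description across sums that share stage and plate. *Tdh* was closest to its antisense neighbour *Gm17232* (r = 0.88), which shares exonic bases with it, followed by *Arid5b* (0.74) and *Tfcp2l1* (0.67), a transcription factor of naive pluripotency. *Tfcp2l1* had a median of 669 CPM at E3.5, 159 CPM in E4.5 and 2.15 CPM in E5.5 epiblast-like sums, so its highest stage was E3.5 where that of *Tdh* was the E4.5 epiblast. *Gcat* was closest to *Vkorc1* (0.84), *Hrsp12* (0.81) and *Ddah2* (0.81). The partners of *Phgdh* were *Zfp259* (0.63), *Ndufv1* (0.61) and *Gm16517* (0.61), those of *Psat1* *Psap* (0.65), *Gnl1* (0.65) and *Polrmt* (0.65) and those of *Gldc* *Scp2-ps2* (0.60), *Gpr155* (0.50) and *Gys1* (0.49). Among members themselves r ran from -0.44 (*Tdh* and *Mthfd2*) to 0.42 (*Gcat* and *Shmt1*), and *Tdh* and *Gcat*, successive steps of threonine breakdown, had r = -0.20.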

How the data were processed

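Single-cell RNA was read as 100 bp paired ends. The authors trimmed the reads, aligned them to GRCm38 with HISAT2, kept alignments of MAPQ 20 or more, and deposited raw counts per gene made with SeqMonk, with cells filtered at 4000 genes and 10% mitochondrial reads. The table used holds chromosomes 1 to 19, and 0 columns were left unused. Cells were clustered (k-means, scikit-learn 1.9.0) without the members and related enzymes, with the number of E6.5 clusters set after markers were seen. Counts were summed per embryo and class (at least 3 cells, wells noted as doublets kept) and tested with edgeR 4.0.16 (quasi-likelihood, TMM, 1 fit over all groups, Benjamini-Hochberg) in R 4.3.3, after a check on simulated counts. DESeq2 1.42.0 and limma 3.58.1 served as alternatives. Stage, lineage and embryo came from sample titles and clusters. Reads carried no molecular identifiers, and p-values rest on the spread between embryos. The members and lists were chosen with earlier results of these data known. Members, the highest called gene of each list and direction, and the genes most like 5 members were named, and genes named besides these were chosen after their values were seen. Both lineages of an embryo come from the same animal, and their deviations from group means correlated with a median of 0.0566 over 5 embryos of E4.5 and 0.0734 over 8 of E6.5.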

Additional observations from a re-analysis of the deposited data

Results flagged for a closer look

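In 3 of 50 groups tested, a single embryo lay far from the others, where chance alone would place about 1 in 20 groups. *Amt* reached 230 CPM in E3.5 embryo 1 of plate P8 (3 cells), *Shmt1* reached 187 CPM in the epiblast-like cells of E4.5 embryo 1 of plate P1, and *Mthfd1* reached 235 CPM in those of E4.5 embryo 4 of plate P2. None of these 3 genes passed in a comparison between E3.5 and E4.5 cells. The 50 groups leave out the 13 E6.5 epiblast-like sums, since groups of more than 10 were not tested. Among those *Mthfd2* was at 371 CPM in embryo 7 of plate P3 and at most 120.3 CPM in the other 12.

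The contrast of endoderm-like with epiblast-like cells differed between E6.5 and E4.5 for 3 members, by 4.73 for *Tdh*, 2.74 for *Amt* and 2.03 for *Gldc* on the log2 scale (edgeR, adjusted p = 0.0253, 0.0328 and 0.0246). That comparison was added after the data were seen. For *Tdh* the term was 2.82 with plates P1 to P3 (adjusted p = 0.197) and 5.66 with the embryos that have no plate name (adjusted p = 0.000136). The cells titled E6.75 are all in the latter embryos, and the part of plate in this difference was not tested.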

How the results depend on the processing

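Of 151 recomputed counts of changed members over 8 results, 112 stayed within 1.5 times the reported count, 36 were smaller and 3 larger. An equal count can hold other members. Along the endoderm, sums of at least 5 cells and fitting only the groups compared each gave 2, *Gcat* and *Gldc*, with *Psat1* lost. Of 395 recomputed fold changes of called members 300 kept direction and call, 95 kept the direction without passing, and 0 turned. The cause was not tested where a value moved. Testing against the log2 limit gave 0 members from E3.5 to E4.5 epiblast-like cells (reported 4; 3 at unadjusted p under 0.05), 0 from E5.5 to E6.5 (reported 3; 1), 0 between E4.5 lineages (reported 1; 2), 1 between E6.5 lineages (reported 5), 0 along the endoderm (reported 2; 1) and 1 for the stage difference (reported 3). DESeq2 called 4, 3, 1, 5 and 3 in the first 5 of these. Sums of at least 1 cell gave 2 for E3.5 to E4.5 (*Gcat* and *Phgdh*), 1 along the endoderm (*Gcat*, with *Gldc* and *Psat1* lost) and 0 for the stage difference (5 at unadjusted p under 0.05), and sums of at least 5 cells gave 2 from E3.5 to PrE-like cells (reported 1). Fitting only the groups compared gave 2 from E3.5 to E4.5 epiblast-like cells (*Phgdh* kept, *Tdh* gained, *Gcat*, *Psat1* and *Shmt2* lost) and 2 between E4.5 lineages (*Tdh* added, with 1264 genes), and a log2 limit of 2 gave 0 in the latter (2 at unadjusted p under 0.05).

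By plate, plates P1 to P3 gave 2 between E6.5 lineages and 0 for the stage difference (5 at unadjusted p under 0.05), and embryos with no plate name 0 from E5.5 to E6.5 (3 at unadjusted p under 0.05), 1 between E6.5 lineages, 1 along the endoderm and 1 for the stage difference. Without E6.75 cells the E6.5 lineages gave 3 and the stage difference 1. Along the endoderm RLE factors, no filter on low counts, merged embryos and, chosen after seeing the data, leaving out the *Cer1* cluster or E6.5 embryo 7 of plate P3 each gave 1. Without that embryo 4 members passed between E6.5 lineages (*Mthfd2* lost). Without 1 E4.5 embryo the counts ran from 2 to 3 from E3.5 to E4.5 epiblast-like cells, 0 to 1 between E4.5 lineages (0 without embryo 1 or 4, with 2 and 1 at unadjusted p under 0.05), 1 to 2 along the endoderm and 0 to 2 for the stage difference (0 without embryo 3 or 4, with 4 and 5 at unadjusted p under 0.05), itself a comparison added after seeing the data. Leaving out each E6.5 endoderm-like sum was not run, since there were 8.

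With embryo as a replicate block, in the E4.5 sums alone, the E4.5 lineages gave 2 members (*Phgdh* and *Tdh*, as without the block) and 1342 genes, and the E6.5 lineages, in the 8 embryos with both, 4 members (*Tdh* lost) and 579 genes. Fitting the E6.5 sums alone without the block also gave 4 (*Tdh* lost), with 838 genes. Between E6.5 lineages the median gene moved by -0.22 under TMM and -0.08 under RLE. With limma-trend on the mean of cells, *Tdh* there was at 0.17 (adjusted p = 0.924). The shallowest cell held 66896 counts. Leaving out cells under 300000 counts, or those in which the markers of the other lineage outweighed their own, changed no count by over 1.5 times. Both steps were chosen after seeing the data.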

Other observations

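A single embryo gave an E5.5 endoderm-like sum (5 cells) and another an E6.5 streak-like sum (23 cells), so neither has a test. The E5.5 endoderm-like sum held the highest *Gcat* and *Phgdh* levels of all 51 sums, 925 and 864 CPM, with *Amt* at 121, *Tdh* at 113, *Psat1* at 83.1 and *Shmt2* at 6.49 CPM and no *Mthfd2* count. Ward clustering did not set these E5.5 cells apart. The streak-like sum held 346 CPM of *Phgdh*, 184 of *Psat1*, 109 of *Shmt2*, 162 of *Gcat* and 57.2 of *Tdh*, and a *Tdh* count was found in 23 of 23 cells.

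Between the E6.5 endoderm-like clusters other members differed less than *Tdh*. Pooled *Shmt2* was 13.5 CPM in the *Cer1* cluster and 81.0 CPM in the other, *Phgdh* 126 and 304 CPM, *Gldc* 116 and 194 CPM and *Gcat* 419 and 560 CPM. These levels are not TMM-scaled. All cells of the *Cer1* cluster came from plates P1 to P3, which also held 7 of the 21 cells of the other.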
